A study of Mus musculus with 27 samples.

Results

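The sites described here are stretches of chromatin in mouse hematopoietic progenitor cells (HPC) that carried H3K4me1 before and after birth but H3K27ac only in the adult. They were chosen by measured values, namely the peak lists of HPC themselves: a site is an adult HPC H3K27ac peak that shares 1 bp or more with an H3K4me1 peak of fetal HPC and with one of adult HPC, and shares no base with a fetal HPC H3K27ac peak. The rule found 24436 sites among 63108 adult HPC H3K27ac peaks, which is 38.7% of them, and among 901169 peaks in all 8 lists of the study. By the same marks, 24819 adult sites with H3K4me1 at both ages also met a fetal H3K27ac peak, and these sites acetylated at both ages are the main comparison. A further 6320 fetal H3K27ac sites had H3K4me1 at both ages and no adult H3K27ac, and serve as the mirror set.

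Cells came from mice of the B6 background, at E16.5 for the fetal groups and at 8 weeks for the adult groups, and no treatment or altered allele is named in the labels. Hematopoietic stem cells (HSC) and HPC were sorted, fixed and profiled by ChIPmentation, in which chromatin pulled down with an antibody is cut and tagged by the Tn5 transposase. Of the 27 libraries, 3 were inputs, and the other 24 fell into 8 groups: H3K4me1 in HSC (3 fetal and 4 adult libraries) and in HPC (3 and 3), H3K27ac in HPC (3 and 3), and a second K27 set in HPC (2 and 3) whose titles say H3K27me3 while its mark field says H3K27ac. The authors gave 1 pooled peak list per group, so no spread between libraries can be measured and no test over samples is possible. The gate used for the sorts, the pooling of animals and the read depth are unknown here.

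H3K4me1 is laid down at enhancers and on the flanks of promoters by the MLL3 and MLL4 methyltransferases, often before an enhancer is used. H3K27ac is written by the acetyltransferases p300 and CBP and marks enhancers and promoters in use, so an enhancer with H3K4me1 alone is commonly called primed and one with both marks active. H3K27me3, placed by Polycomb repressive complex 2, marks silenced genes and cannot sit on the same lysine as H3K27ac. In blood formation, many enhancers of lineage genes are known to carry H3K4me1 in stem and progenitor cells before the genes are used.

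Few of the sites held a gene start, and the sequences shown are the ones that could be read for such sites. RefSeq promoter windows on GRCm38.p6 run from 250 bases before a start to 50 after it, and 817 such windows of 729 genes lay wholly inside a site. The 4 shown are those of Cdkn2c and Tnfaip2, whose sites carried the second K27 set in fetal HPC, of Snx18, whose site had H3K4me1 in HSC of the adult only, and of Syde2, the strongest site that covered the start of a protein-coding gene outside the H2 family. Cdkn2c encodes a cyclin-dependent kinase inhibitor of the INK4 family, Tnfaip2 a protein induced by tumour necrosis factor, and Snx18 a sorting nexin of membrane traffic. The windows are at chr4:109665323-109665622 on the minus strand, chr12:111442411-111442710 on the plus strand, chr13:113618515-113618814 on the minus strand and chr3:145987620-145987919 on the plus strand. Capitals mark matches to the 7 motifs searched, a C/EBP match in Cdkn2c and a GATA match in Snx18, and Tnfaip2 and Syde2 had none.
Cdkn2c promoter: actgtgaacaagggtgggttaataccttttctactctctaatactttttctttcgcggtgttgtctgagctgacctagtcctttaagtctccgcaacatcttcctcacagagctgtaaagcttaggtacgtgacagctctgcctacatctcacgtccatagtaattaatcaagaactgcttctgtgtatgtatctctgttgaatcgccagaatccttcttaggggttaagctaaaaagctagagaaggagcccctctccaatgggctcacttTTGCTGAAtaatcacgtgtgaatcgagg
Tnfaip2 promoter: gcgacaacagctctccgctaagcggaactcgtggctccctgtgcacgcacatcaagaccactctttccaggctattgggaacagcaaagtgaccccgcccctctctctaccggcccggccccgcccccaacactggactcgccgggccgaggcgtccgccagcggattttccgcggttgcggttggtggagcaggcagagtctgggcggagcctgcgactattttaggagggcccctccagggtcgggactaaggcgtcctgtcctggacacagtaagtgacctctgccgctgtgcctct
Snx18 promoter: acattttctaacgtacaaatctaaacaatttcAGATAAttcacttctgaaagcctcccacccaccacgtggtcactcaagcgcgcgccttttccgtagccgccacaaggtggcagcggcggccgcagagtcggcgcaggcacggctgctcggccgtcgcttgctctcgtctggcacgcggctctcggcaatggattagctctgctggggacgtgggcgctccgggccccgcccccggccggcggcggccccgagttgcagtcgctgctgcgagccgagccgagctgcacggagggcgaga
Syde2 promoter: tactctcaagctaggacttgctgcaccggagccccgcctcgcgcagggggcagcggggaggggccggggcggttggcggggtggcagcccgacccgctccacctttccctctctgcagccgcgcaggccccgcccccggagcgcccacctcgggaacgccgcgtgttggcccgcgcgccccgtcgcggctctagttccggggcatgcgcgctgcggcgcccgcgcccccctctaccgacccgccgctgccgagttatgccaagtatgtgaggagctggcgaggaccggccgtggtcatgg

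The Syde2 and Snx18 windows are rich in CpG, with 39 and 35 CpG dinucleotides in 300 bases and a G+C content of 75% and 65.3%. The Tnfaip2 window had 23 CpG and the Cdkn2c window 8. Windows inside the sites had a median of 16 CpG, against 22 in the 10028 windows inside sites acetylated at both ages and 7.0 in all 32851 windows of the table. In ranks 10001 to 20000 of the adult H3K27ac list the order was the other way, with medians of 19 inside the sites and 17 inside sites acetylated at both ages.

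MicroRNA genes offered the other readable sequences, since 22 of 1005 RefSeq hairpins lay wholly inside 20 of the sites. Sites acetylated at both ages held 85 of the 1005. A microRNA pairs with its targets mainly through its seed, bases 2 to 8, shown in capitals. The clearest case is a site of 1515 bp at chr11:75172553-75174067 that held both hairpins of the Mir212 and Mir132 cluster, whose 3p arms share the seed AACAGUC. Mir193a, known in human leukaemia as a repressor of KIT, lay in a site at chr11:79710951-79712232, and Mir760 in one at chr3:122292767-122294521. The mature sequences are those of RefSeq.
miR-132-3p: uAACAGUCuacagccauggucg
miR-212-3p: uAACAGUCuccagucacggcca
miR-132-5p: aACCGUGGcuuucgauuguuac
miR-212-5p: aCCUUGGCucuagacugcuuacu
miR-193a-3p: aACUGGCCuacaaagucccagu
miR-193a-5p: uGGGUCUUugcgggcaagauga
miR-760-3p: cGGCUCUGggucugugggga

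The site of Mir132 and Mir212 stood at rank 13852 of the adult H3K27ac list with a fold of 6.03, where fold is the authors' ratio of ChIP signal over background at a peak and rank 1 is the highest −log10 p. Its H3K4me1 peaks had folds of 2.55 in the fetal and 6.13 in the adult HPC list, and of 2.40 in the fetal and 5.84 in the adult HSC list. The nearest fetal H3K27ac peak was 4328 bp away. The Mir193a site had an H3K27ac fold of 5.60 and the Mir760 site one of 6.39. Folds belong to their own list, and a fold in one list is set beside that in another only to describe the site.

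Adult-only acetylation was a feature of the weaker part of the adult H3K27ac list. Of the 10000 strongest adult sites, 9622 had H3K4me1 at both ages and 104 of these, 1.08% (95% Wilson interval 0.893 to 1.31), lacked fetal H3K27ac. The share was 23.0% among ranks 10001 to 20000, 58.1% among ranks 20001 to 30000, and 84.9% (84.1 to 85.7) among the last 13108 ranks. Over the whole list it was 49.6%, and 58.5% of all adult H3K27ac sites lacked a fetal H3K27ac peak whatever their H3K4me1. All these shares describe how the rule divides the list. Wilson intervals, here and below, cover counting error only, and sites that lie side by side are not independent.

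**Figure D1:**
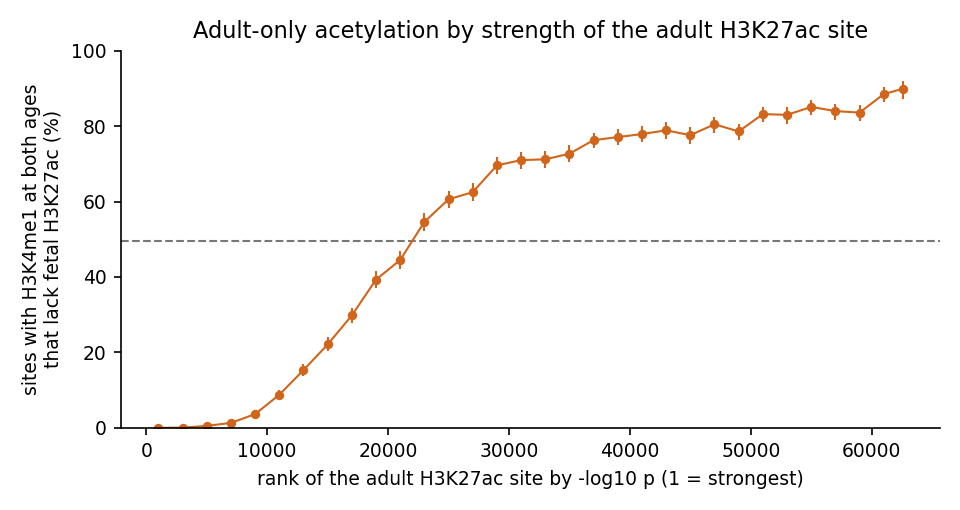
Share of adult H3K27ac sites with H3K4me1 at both ages that lacked fetal H3K27ac (percent, y axis), in bins of 2000 ranks of the adult list (x axis), with 95% Wilson intervals as bars and the share over the whole list, 49.6%, as a dashed line. The points lie near 0 at the strongest ranks and above 80 at the weakest.

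The sites were narrow and modest. Their median width was 544 bp (quartiles 363 and 864), against 1670.0 bp at sites acetylated at both ages. Their median H3K27ac fold was 2.91 (quartiles 2.55 and 3.41, highest 17.7), against 6.17. At the border of the rule, 54 sites had a fetal H3K27ac peak 10 bp or less away, and 59 adult sites were left out for an overlap of 10 bp or less. Both sets had a median fold of 2.84, so the border runs through sites of like strength. Another 65 sites met their fetal H3K4me1 peak by 10 bp or less, while 20121 were covered over at least 50% of their length by an H3K4me1 peak of each age.

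Within the fetal HPC H3K4me1 list the sites stood below those acetylated at both ages, with a median rank of 31602 of 177310 against 17297. Within the adult list their median rank was 15564 of 126502 against 17224. The lists differ in length, so the ranks show no change between ages. Among the strongest 20000 fetal H3K4me1 peaks lay 36.8% of the sites (36.2 to 37.4) and 54.4% of sites acetylated at both ages. Among the strongest 20000 adult H3K4me1 peaks these shares were 57.1% and 54.8%. The presence of both peaks was part of the rule, so these ranks are a description.

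The 12 strongest sites had H3K27ac folds of 11.3 to 17.7. First was a site of 3020 bp at chr19:23133734-23136753, rank 3002, 5487 bp from Klf9, a Krüppel-like transcription factor induced by hormones and stress. Its H3K27ac fold was 17.7, its H3K4me1 folds were 2.99 in fetal and 4.77 in adult HPC, and its nearest fetal H3K27ac peak was 3544 bp away. Near Dntt, the terminal transferase that adds bases to antigen receptor joints in lymphoid precursors, a site 6476 bp from the gene had a fold of 12.3. It met fetal HSC H3K4me1 by 3 bp only, while 1371 bp of it lay on adult HSC H3K4me1. Other strong sites lay inside B4galnt1 (ganglioside synthesis, fold 13.8), Dip2b (13.1), Syde2 (12.8), Ablim1 (an actin-binding protein, 12.6), Synj2 (a phosphoinositide phosphatase, 12.4) and Lpcat3 (a phospholipid acyltransferase, 11.3). The site at H2-Q7, a class Ib MHC gene of a near-identical family, had a fold of 13.9, and reads there may be split between copies. For the last 3 the nearest coding genes were 1700001O22Rik (12.9) and Cryaa (12), and none lay within 100 kb of the site at chr8:126702763-126709405 (14.2).

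H3K4me1 in HSC took no part in the rule, and it separated the sites from those acetylated at both ages. Of the 24436 sites, 85.0% (84.5 to 85.4) met an H3K4me1 peak of fetal HSC and 90.9% (90.5 to 91.3) one of adult HSC, against 75.0% and 81.4% of all adult H3K27ac sites. At sites acetylated at both ages both shares were 98.0%. The difference in the fetal share was -13.0 percentage points (95% Newcombe interval -13.4 to -12.5), and that in the adult share -7.11 (-7.51 to -6.71). The mirror set ran the other way, with 97.1% in fetal and 84.2% in adult HSC.

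Some sites had the mark at only 1 age of HSC. H3K4me1 was called in adult HSC and not in fetal HSC at 10.3% (9.92 to 10.7) of the sites, near the 10.1% (9.83 to 10.3) of all adult H3K27ac sites. It was at 1.62% of sites acetylated at both ages, at 0.965% of the mirror set and at 24.8% of the other sites acetylated in the adult only, which lacked HPC H3K4me1 at 1 or both ages. It was called in fetal and not adult HSC at 4.37% of the sites, against 3.59% of all adult H3K27ac sites. That share was 1.56% at sites acetylated at both ages, 13.9% in the mirror set and 5.21% at the other sites acetylated in the adult only. HSC of neither age had it at 4.71% of the sites. The fetal HSC list is the longer one, with 231188 peaks over 176 Mb against 143571 over 155 Mb in the adult.

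The difference was present at every strength of acetylation. In each of 6 rank bands of the adult H3K27ac list, between 9.63% and 11.5% of the sites had H3K4me1 in adult HSC only, against 0.981% to 2.31% of sites acetylated at both ages. Among the strongest 20000, of which 11.1% were members, the fetal HSC share was 89.3% at the 2227 members and 98.1% at the others with H3K4me1 at both ages, a difference of -8.80 points (-10.2 to -7.56). The adult HSC shares there were 98.2% and 99.2%. H3K4me1 in fetal HSC only did not separate the sets within bands: among ranks 10001 to 20000 it was at 0.801% of the sites and 0.830% of sites acetylated at both ages, a difference of -0.0289 points (-0.413 to 0.484).

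**Figure D2:**
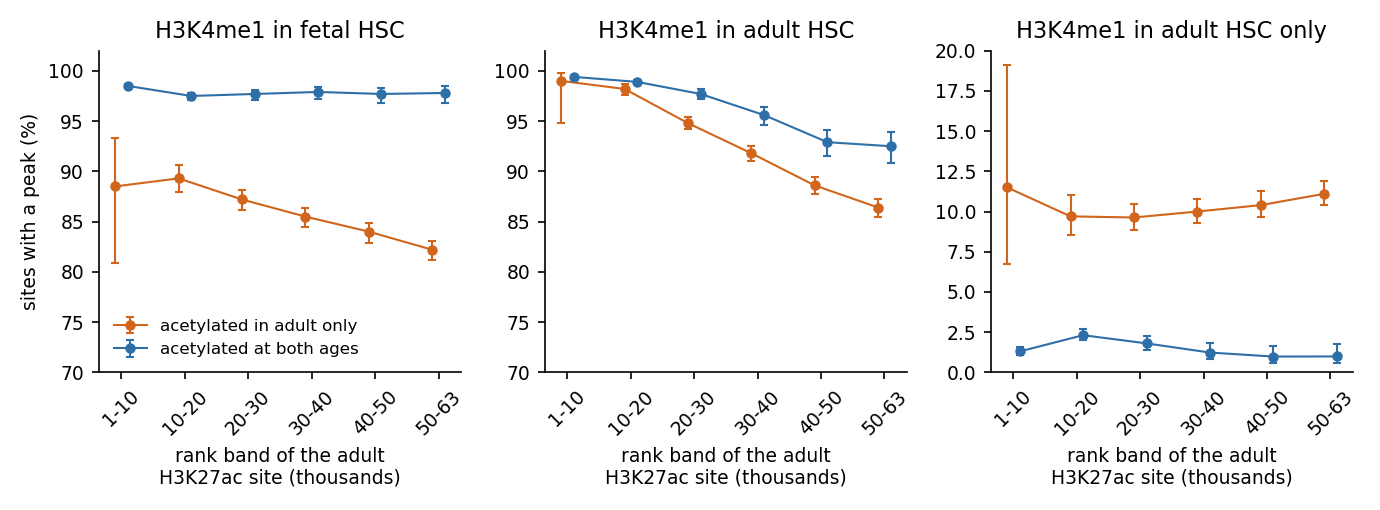
Share of sites with an H3K4me1 peak in fetal HSC, in adult HSC and in adult HSC only (percent, y axes, the first 2 starting at 70), in 6 rank bands of the adult H3K27ac list (x axes), with 95% Wilson intervals. Orange points are sites acetylated in the adult only and blue points sites acetylated at both ages, and the adult-only share stays near 10% in orange and near 1% to 2% in blue.

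The difference was also present among sites of like H3K4me1 rank in fetal HPC, and its size varied with that rank. Where the fetal HPC H3K4me1 peak was among the strongest 20000, 95.6% of 8983 sites and 99.7% of 13509 sites acetylated at both ages had H3K4me1 in fetal HSC, a difference of -4.07 points (-4.52 to -3.66). Below rank 80000 of that list the shares were 59.2% and 87.5%, a difference of -28.4 points (-30.3 to -26.3). The share with H3K4me1 in adult HSC only varied with that rank too. It was 2.69% of the sites and 0.163% of sites acetylated at both ages in the strongest 20000, and 28.4% and 10.3% below rank 80000. Wider peaks meet other peaks more easily, and the sites acetylated at both ages were wider. With the 1 bp summit in place of the whole peak, in the rule and in the overlap, the fetal HSC share was 77.3%. The difference was then -15.6 points (-16.3 to -14.9). That setting also redrew both sets, members being 66.1% of sites with H3K4me1 at both ages in place of 49.6%. The part of width was not tested.

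Within the fetal HSC list, the H3K4me1 peaks that the sites did meet had a median rank of 49734 of 231188, against 23696 for those at sites acetylated at both ages. Within the adult HSC list the medians were 21136 and 20129 of 143571.

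The strongest sites with H3K4me1 in adult HSC only lay at Casz1, Tbrg4, Cd300a, Snx18 and near H2-T3. The Casz1 site, inside the gene of a zinc finger transcription factor, had an H3K27ac fold of 11.8, an adult HSC H3K4me1 fold of 4.17 and no fetal HSC peak. Cd300a, an inhibitory receptor of myeloid cells, had a site 5601 bp away with an H3K27ac fold of 10.4 and H3K4me1 folds of 3.39 in fetal HPC, 7.13 in adult HPC and 3.13 in adult HSC. The Tbrg4 site had a fold of 10.9. At Snx18 the site at chr13:113617623-113618984 held the promoter printed above, with an H3K27ac fold of 9.58 and an adult HSC H3K4me1 fold of 5.79. Its fetal HPC H3K4me1 overlap was 35 bp, close to the limit of the rule. H2-T3 belongs to a near-identical family.

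Fetal HPC carried a peak of the second K27 set at 101 of the sites, 0.413% (0.340 to 0.502), against 0.284% of all adult H3K27ac sites and 0.214% of sites acetylated at both ages. The contrast was larger among strong sites. In the strongest 20000, 48 of 2227 sites (2.16%, 1.63 to 2.85) and 49 of 16629 sites acetylated at both ages (0.295%, 0.223 to 0.389) met such a peak, a difference of 1.86 points (1.33 to 2.56). Of all 20000 adult sites there, 104 (0.520%) met one. Near a gene end the shares were 6.29% (4.49 to 8.74) of 509 sites and 0.478% (0.344 to 0.664) of 7318 acetylated at both ages. Away from gene ends they were 0.931% and 0.150%. At the other sites acetylated in the adult only, of all ranks, the share was 0.185% (0.123 to 0.277). With second-set peaks within 1 kb counted, the shares over all ranks were 1.35% of the sites and 1.41% of all adult sites. They were 0.794% at sites acetylated at both ages and 2.56% at the other adult-only sites. In the strongest 20000 they were 4.71% of the sites, 1.81% of all adult sites and 1.09% of sites acetylated at both ages. Of 770 mirror sites among the strongest 20000 fetal H3K27ac sites, 6 (0.779%) met a second-set peak of adult HPC and 0 one of fetal HPC. Fetal H3K27ac was part of the rule that split these sets, so the contrast is a description.

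These overlaps were mostly on the flanks. The median overlap among the 48 was 282 bp, and 40 of them shared 100 bp or more. The H3K27ac summit itself lay on a second-set peak at 3 of the 2227 sites (0.135%) and at 14 of all 24436. Of the 48 second-set peaks, 15 reached a −log10 q of 5. In the fetal second-set list 7097 of 54339 peaks did so, and it is a list of weak peaks. Which mark the set holds cannot be settled from its labels.

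At Cdkn2c the second-set peak covered 832 bp of a site of 2733 bp at chr4:109664981-109667713, with a second-set fold of 6.04 and an H3K27ac fold of 11.6. The next 4 were a site 63376 bp from Ppara (a nuclear receptor of fatty acid use), and sites at Tnfaip2, at Eml5 and near H2-T3, with second-set folds of 4.07, 2.48, 4.94 and 4.30. At the Eml5 site H3K4me1 was called in fetal and not in adult HSC, and at the H2-T3 site in adult and not in fetal HSC. The nearest fetal H3K27ac peak to the Tnfaip2 site was 71092 bp away. None of these 5 met a second-set peak of adult HPC.

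**Figure D3:**
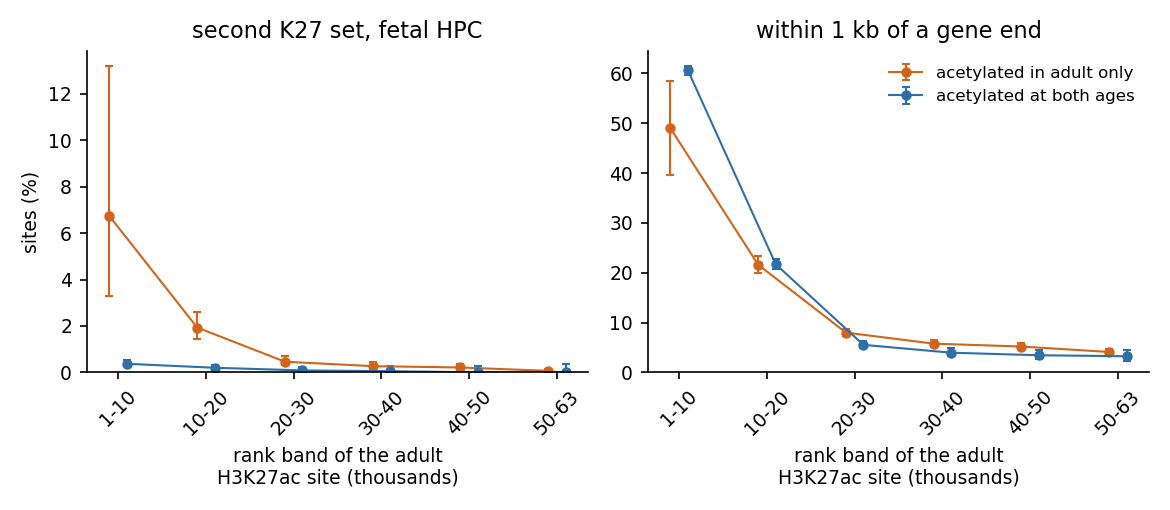
Share of sites that met a fetal second K27 set peak (left, percent) and share with a summit within 1 kb of a coding gene end (right, percent), in 6 rank bands of the adult H3K27ac list, with 95% Wilson intervals. Orange is acetylated in the adult only and blue at both ages, and the left panel separates the sets most in the strongest bands, while in the right panel they lie close together from rank 10001 on.

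Most sites lay away from gene starts. A summit within 1 kb of either end of a coding gene was found at 7.22% (6.91 to 7.55) of the sites, at 17.6% of all adult H3K27ac sites and at 31.0% of sites acetylated at both ages. The totals differ in strength of the sites, and within bands the order was not the same. In ranks 1 to 10000 the shares were 49.0% and 60.6%, a difference of -11.6 points (-21.1 to -2.08). In ranks 10001 to 20000 the shares were 21.6% and 21.7%, and in ranks 20001 to 30000 they were 7.98% and 5.52%, the sites then being higher by 2.46 points (1.39 to 3.51). With listed RefSeq starts in place of gene ends the share was 7.05%. Inside a coding gene body lay 60.9% of the summits, against 64% of all adult H3K27ac sites, and for 6.06% no coding gene lay within 100 kb, against 5.60%.

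Promoters inside the sites were searched on both strands for 7 motifs of blood transcription factors, first in sites of ranks 10001 to 20000. PU.1, searched as GAGGAAGT, was found in 3 of 421 windows inside the sites (0.713%, 0.243 to 2.07) and in 76 of 1710 inside sites acetylated at both ages (4.44%, 3.57 to 5.53), against 3.20% of all windows. For GATA, searched as AGATAA, the shares were 3.56% (2.17 to 5.79) and 6.78% (5.69 to 8.07), against 11.2% of all windows. The IRF motif GAAANNGAA was in 5.46% (3.67 to 8.06) and 8.89% (7.63 to 10.3), against 8.56%. Of the 7 motifs, PU.1 was the one whose intervals did not overlap between the sets. AP-1 (TGANTCA) was in 5.70% and 6.43%, against 7.81% of all windows. C/EBP, searched as TTGCNNAA, was in 9.26% and 9.18%, against 10.8%. RUNX, searched as TGTGGT, was in 14.3% and 15.1%, against 16.8%. MYB, searched as AACNGTC, was in 6.89% and 7.6%, against 8.01%. Over all ranks, with 817 and 10028 windows, the order depended on the motif and on the ranks taken. PU.1 was then in 2.69% (1.78 to 4.04) and 3.60% (3.25 to 3.98), with overlapping intervals. AP-1 was in 7.96% (6.29 to 10) and 4.60% (4.20 to 5.02), and RUNX in 15.8% (13.4 to 18.4) and 12.4% (11.8 to 13.1), both higher inside the sites. Some windows of a gene overlap and motifs may overlap each other, so windows are not independent. In ranks 10001 to 20000 median G+C was 62.3% in the first set and 59.0% in the second, and its part in these shares was not tested. These windows speak for the few sites at starts, and the sequence of the other sites was not analysed here.

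Fetal acetylation was often close by. The nearest fetal H3K27ac peak lay at a median of 4724 bp (quartiles 1239 and 14762), within 1 kb for 21.9% of the sites and beyond 50 kb for 6.0%. Among the 2227 strong sites 8.76% had one within 1 kb. The sites also lay in groups: 58.0% had another one within 5 kb, 43.4% shared their adult HPC H3K4me1 peak with another, and 27.2% shared it with a site acetylated at both ages. Leaving those 27.2% out, the shares with H3K4me1 in HSC were 83.3% in the fetus and 90.4% in the adult, and 11.5% had it in adult HSC only.

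**Figure D4:**
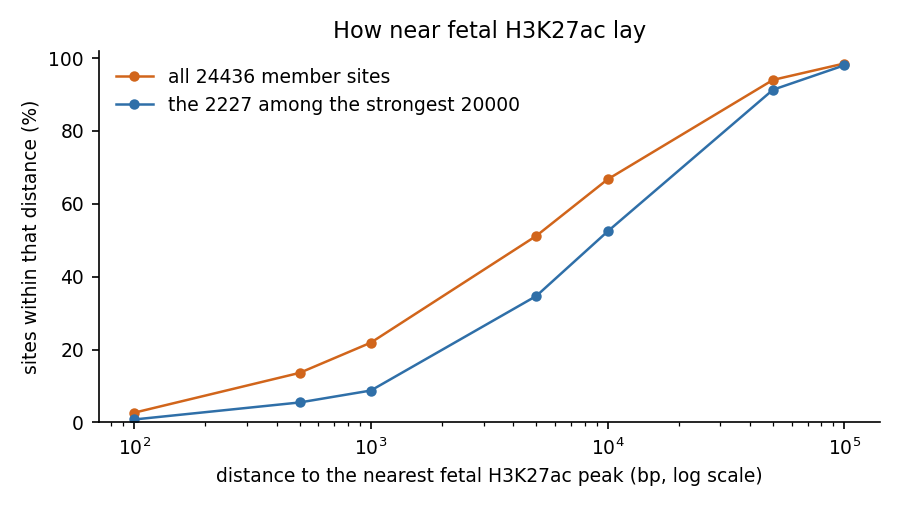
Cumulative share of sites (percent, y axis) with a fetal H3K27ac peak within a given distance (bp, log x axis), for all 24436 sites in orange and for the 2227 among the strongest 20000 adult H3K27ac sites in blue. At 5000 bp the shares were 51.2% and 34.7%.

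The sites were spread over 7055 of 21896 coding genes (32.2%), each site given to the nearest gene within 100 kb. Exactly 1 site was assigned to 2965 of these genes and 10 or more to 408. Of the 7055, 74.1% also had sites acetylated at both ages. Gse1, which encodes a partner of the CoREST histone demethylase complex, had 66 of its 91 adult H3K27ac sites in the set. Msi2, an RNA-binding protein of stem cells, had 61 of 112, Cux1, a homeobox factor, 59 of 100, and Etv6, an ETS repressor needed by adult HSC, 57 of 118. Next came Zmiz1 (49 of 79), Arid1b, a BAF remodelling subunit (48 of 108), Bcl11a (45 of 80), Runx1 (45 of 78), Foxp1 (41 of 99), Ptpre (37 of 60), Prex1 (36 of 63) and Prkag2 (35 of 65). Long genes hold more sites of any kind, and numbers per gene were not scaled by length.

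Among the genes of myeloid transcription factors, 93 of 188 adult H3K27ac sites (49.5%, 42.4 to 56.6) were members, against 38.7% of all adult sites. In the strongest 20000 they were 13 of 44 (29.5%, 18.2 to 44.2), against 11.1%. Cebpa, the factor that directs granulocyte and monocyte fate, had 12 of its 18 adult sites in the set and 1 acetylated at both ages. The 12 spanned chr7:35098309-35149331 on both sides of the gene, with H3K27ac folds of 2.34 to 4.82, and all 12 met H3K4me1 of adult HSC and 10 of them that of fetal HSC. Cebpb, a C/EBP factor of emergency granulopoiesis, had 18 of 38, of which 5 were among the strongest 20000. Its sites had folds of 2.13 to 7.88 over chr2:167679644-167772741, and 15 met adult and 13 fetal HSC H3K4me1. Irf8, the interferon regulatory factor of monocyte and dendritic cell fate, had 17 of 29, all 17 with H3K4me1 in adult HSC and 13 with it in fetal HSC.

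At myeloid receptor genes 55 of 104 sites were members (52.9%, 43.4 to 62.2), and 3 of 25 in the strongest 20000. Il1r1, the interleukin-1 receptor, had 9 of 20, Itgam, the integrin chain CD11b, 6 of 14, and Csf2rb2, a beta chain of the interleukin-3 receptor, 6 of 8 with no fetal H3K27ac site assigned. Csf2rb2 has a near-identical neighbour, Csf2rb. At granule and effector genes 16 of 42 were members (38.1%), near the share of all adult sites. Elane, neutrophil elastase, had 3 of 3, Fcnb, a ficolin, 4 of 9, and Mpo, myeloperoxidase, 2 of 3. At inflammatory signalling genes 74 of 154 were members (48.1%, 40.3 to 55.9), led by Tnfaip3 with 9 of 18, Socs1 with 8 of 10 and Tnfrsf1b with 7 of 15.

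Other lists had shares of the same order. Members were 47.9% of 359 sites at lymphoid priming genes (Bcl11a, Rora with 28 of 72, Notch1 with 18 of 26), 52.5% of 101 at erythroid and megakaryocyte genes and 46.6% of 489 at HSC identity genes. Zfpm1, the GATA1 partner FOG1, had 23 of 27, Vwf 7 of 17 and Selp 6 of 8. Kit, the stem cell factor receptor, had 24 of 46, and Meis1, a homeobox factor of HSC, 20 of 45. Cell cycle genes had 45.8% of 155, with Cdk6 at 22 of 44, Ccnd3 at 18 of 27 and Ccnd1 at 11 of 19. Immediate early and AP-1 genes had 44.0% of 159 (Ier3 12 of 17, Ier5 12 of 21, Fos 9 of 23). Interferon and antigen presentation genes had 42.6% of 162, with Irf2 at 17 of 41, Ly6e at 14 of 17 and Irf1 at 11 of 19. Housekeeping genes, a list with no tie to lineage, had 45.2% of 73 (34.3 to 56.6). Within 10 kb of a gene the housekeeping share was 9 of 35 sites (25.7%, 14.2 to 42.1), and that of myeloid transcription factors 38 of 69 (55.1%, 43.4 to 66.2). At that distance myeloid receptors had 50 of 84 (59.5%), erythroid and megakaryocyte genes 46 of 81 (56.8%) and immediate early and AP-1 genes 17 of 57 (29.8%). The share over all genes at that distance is not given here. Genes of a fetal programme had 34.6% of 52 (Dlk1 6 of 9, Arid3a 4 of 6, Hmga2 4 of 17) and 0 of 8 in the strongest 20000.

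**Figure D5:**
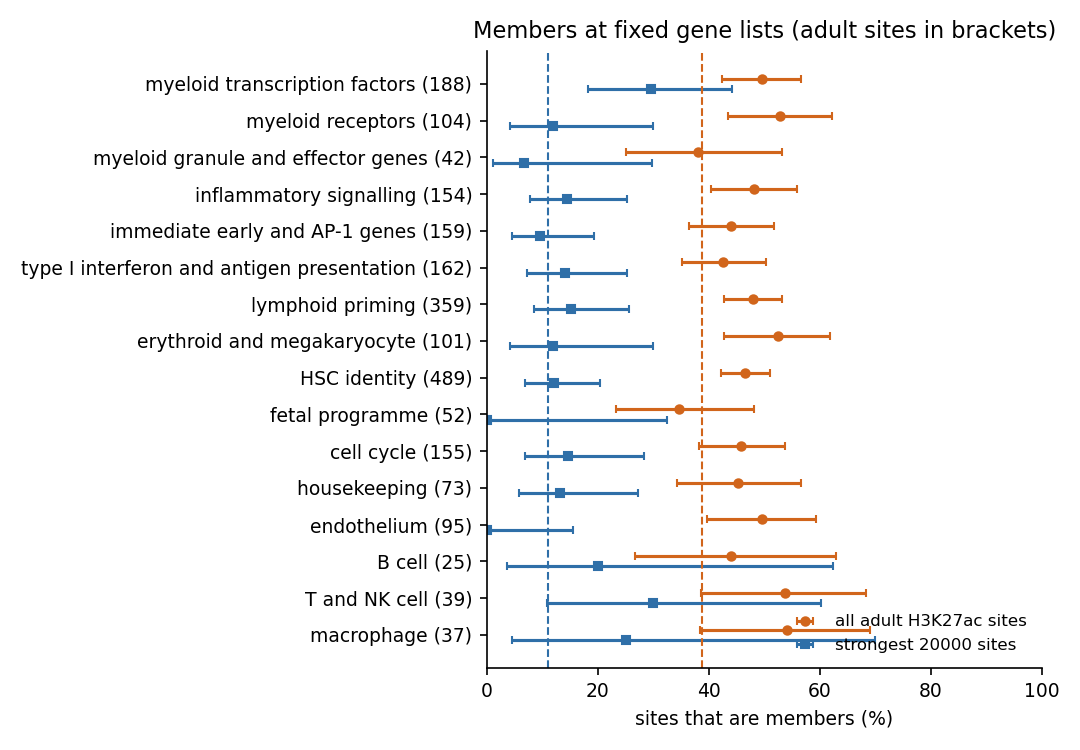
Members as a percentage of the adult H3K27ac sites assigned to each gene list (x axis), over all sites (orange circles) and over the strongest 20000 (blue squares), with 95% Wilson intervals. Dashed lines are the shares of all adult H3K27ac sites, 38.7%, and of the strongest 20000, 11.1%, with or without an assigned gene. Lists with under 25 adult sites are left out, and the interval of the myeloid transcription factors lies above the line in both cases.

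Markers of other cell types were looked for as a check of the labels. All 8 genes that define HSC and HPC had adult H3K27ac within 1 kb of the gene and 6 had fetal H3K27ac, Ly6a and Procr being the exceptions. Of genes of other cells, 6 of 14 hepatocyte, 10 of 12 endothelial, 11 of 13 B cell, 8 of 16 T and NK cell, 6 of 14 macrophage and 3 of 12 stromal genes had adult H3K27ac, and 4, 11, 5, 4, 7 and 2 had fetal H3K27ac. Members lay at 6 of the 8 HSC and HPC genes, 2 of them in the strongest 20000. They lay at 7 of the 13 B cell genes, 1 of them, Blk, in the strongest 20000, and at 6 of the 16 T and NK cell genes, 2 of them in the strongest 20000. Endothelial genes had members at 7 of 12, macrophage genes at 4 of 14, stromal genes at 3 of 12 and hepatocyte genes at 2 of 14. In the strongest 20000 these were at 1 stromal gene, Pdgfrb (fold 7.59), 1 hepatocyte gene, Afp (fold 4.40), and no endothelial or macrophage gene. The same share over all genes is not given here. Of all adult H3K27ac sites 38.7% were members. Among sites assigned within 100 kb, members were 44.0% of 25 at B cell genes and 53.8% of 39 at T and NK cell genes. They were 54.1% of 37 at macrophage genes and 49.5% of 95 at endothelial genes. They were 7 of 15 at hepatocyte genes, 11 of 18 at stromal genes and 5 of 10 at developmental regulators that are silent in blood. The part of other cells in the lists was not tested.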

How the data were processed

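ChIPmentation libraries of sorted HSC and HPC came as peaks on mm10 (GRCm38). The submitters' processing notes name Novoalign and MACS2. The sources used here give no versions, threshold, filter or use of inputs. The authors deposited 1 filtered peak list per group, pooled over its libraries. Per peak, the authors wrote a ratio (fold over background). The authors also gave −log10 of p and of q. All were used only within a list. Read depth is unknown.

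Peaks were intersected with a minimum of 1 bp in Python 3.11.15 with numpy 2.4.6 and pandas 2.3.3. The overlap counting was tested on simulated lists. Shares carry 95% Wilson intervals and differences Newcombe intervals, for counting error only. A site was assigned by its summit to the nearest coding gene body within 100 kb in the RefSeq table for GRCm38.p6, and 368 of 371 listed names matched. Promoter windows were used for motifs because no genome was used here.

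The members and gene lists were chosen with earlier results of these data known. Genes were named by rule: the 12 with most members, those of the 12 strongest members, up to 3 per list, and those of the 5 strongest members with a fetal second-set peak or with H3K4me1 in adult HSC only. Snx18 and Syde2 promoters, the microRNAs and the genes without fetal H3K27ac were picked after their values were seen. Overlap, threshold, rank, summit and chromosome choices were varied.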

Additional observations from a re-analysis of the deposited data

How the results depend on the processing

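The lower fetal HSC share at the sites than at sites acetylated at both ages kept its sign in all 8 settings tried. The difference ran from -7.80 points (50% coverage of the adult peak asked of each HPC overlap in the rule) to -19.0. The latter came with fetal HSC peaks of −log10 q of at least 5, a setting chosen after seeing the data. Shares moved more. The 50% setting held for fetal H3K27ac too, so an adult peak covered by it over under 50% counted as a member. That gave 26274 members, some of them with a fetal H3K27ac overlap. With 50% coverage members were 74.9% of sites with H3K4me1 at both ages. Their shares were 91.4% for fetal HSC, 93.8% for adult HSC, 4.83% near a gene end and 0.148% with the fetal second set. With no fetal H3K27ac within 1 kb these were 38.7%, 83.8%, 91.2%, 7.89% and 0.524%. With adult −log10 q of at least 5 they were 44.9%, 85.8%, 92.1%, 8.08% and 0.501%, and with the adult list cut to the length of the fetal list 43.8%, 85.9%, 92.4%, 8.28% and 0.522%. In the strongest 20000 there were 2227 members in place of 24436, and the shares were 11.8%, 89.3%, 98.2%, 22.9% and 2.16%. By summit they were 66.1%, 77.3%, 88.0%, 4.60% and 0.0376%. Chosen after seeing the data, fetal HSC peaks of −log10 q of at least 5 gave 75.3%, and second-set peaks of that level 0.115%. The causes were not tested. Autosomes alone moved none of the 7 results beyond their intervals. Assigning sites within 10 kb of a gene moved 3 of 19 list shares beyond their intervals, those of housekeeping genes (25.7%), of immediate early and AP-1 genes (29.8%) and of developmental regulators silent in blood (0 of 4). Taking the strongest 20000 moved 18 of the 19. The share of all adult sites that were members moved there too, from 38.7% to 11.1%. No paired analysis was possible because each group has 1 pooled list, and no library could be left out for the same reason. A missing peak is not a missing mark: calling depends on depth, which is unknown.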

Other observations

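Some genes with sites in the set had no fetal H3K27ac site assigned to them at all. There were 1370 such genes among the 7055 with sites, and 220 had 3 or more sites. The rule leaves out sites that meet fetal H3K27ac, so these counts are a description. The same share over all genes with adult H3K27ac is not given here. Cpn2, a subunit of carboxypeptidase N, had 13 of 14 adult H3K27ac sites in the set, 6 of them among the strongest 20000. Rara, a retinoic acid receptor, had 8 of 8, Acvrl1, a type I receptor for BMP9, 9 of 9, and Mgll, monoacylglycerol lipase, 15 of 19. These genes were picked after their values were seen.

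Chromosome X stood apart, for the mirror set as well as for the sites. Of its 720 adult H3K27ac sites, 131 (18.2%, 15.5 to 21.2) were members, against 35.8% to 42.1% on the autosomes. Mirror sites were 6.33% of its 569 fetal H3K27ac sites, against 10.3% to 14.5% on the autosomes. Of its adult sites, 56.8% had adult HPC H3K4me1, against 85.9% to 89.3% on the autosomes. Fetal HPC H3K4me1 was at 52.1%, against 78.4% to 84.6%, and 60.4% met fetal H3K27ac, against 37.6% to 49.3%. Among its 325 sites with H3K4me1 at both ages, 40.3% were members, against 43.3% to 53.2%.

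A second-set peak of adult HPC was met by 4 of the 24436 sites, near Egr3, Tafa4, Camkv and Cldn34a, and at Egr3 a fetal one was met too.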
